A study of Gallus gallus with 15 samples.

Results

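The comparison described here set Korat chickens fed L-histidine against Korat chickens fed β-alanine, as gene expression in breast muscle. It used 10 of the 15 birds of the series, 5 per diet, with 1 RNA library per bird. The L-histidine group received 0.5% L-histidine in the feed and the β-alanine group received 1% β-alanine, so the compounds were not compared at a matched dose, and a difference between the groups combines the compound and its dose. All 10 birds were females of 10 weeks of age from the Korat line, a slow-growing Thai crossbred meat chicken, and each bird of a diet came from a different cage. The 5 birds on the unsupplemented diet were left out of the main test and serve as background levels, and they entered only 1 alternative fit. Of 17475 genes in the table, 15748 had at least 1 count in these 10 birds and 11769 had enough counts to be tested.

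Carnosine is a dipeptide that muscle builds from β-alanine and L-histidine. It buffers protons in working muscle and is abundant in the fast fibres that make up chicken breast. The enzyme that joins the amino acids is carnosine synthase, encoded by CARNS1, and the peptide is cleaved by the carnosinases CNDP1 and CNDP2. Both diets supply a precursor of the same dipeptide, and the question that this comparison addresses is whether the muscle transcriptome differs according to which precursor was fed.

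Sequencing depth was similar between the diets. The L-histidine libraries held 13435756 to 14964384 counted fragments and the β-alanine libraries 13957490 to 15381547, and the difference of the means was not larger than the spread between birds (exact permutation test over 252 splits, two-sided p = 0.444, adjusted over the pair of depth measures p = 0.452). Genes with at least 1 count numbered 13769 to 14472 in L-histidine birds and 13802 to 14178 in β-alanine birds (exact permutation test, two-sided p = 0.452, adjusted p = 0.452). Levels below are normalized FPKM, which are fragments scaled to exonic length in kilobases and to library size, with the library sizes corrected by the relative log expression method. Differences are given on the log2 scale as L-histidine minus β-alanine, so that a positive value means a higher level in L-histidine birds. The 3 troponin genes of fast fibres were abundant in every bird, as was skeletal actin, ACTA1, at 39411 to 83626 normalized FPKM in L-histidine birds, against 51488 to 74151 in β-alanine birds. These marked the tissue as fast skeletal muscle, although PVALB, the parvalbumin gene, had too few counts to be tested.

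In edgeR's quasi-likelihood test no gene had a Benjamini-Hochberg adjusted p under 0.05 together with a fold change of 1.5 or more (0% called). The smallest adjusted p of edgeR was 0.850, so that every difference given below missed the threshold. A second, weaker limit, an unadjusted p under 0.05 in edgeR, is called the nominal limit here. It was passed by 660 genes (5.61% of those tested), of which 358 were higher (3.04%) and 302 lower (2.57%) in L-histidine birds. Limma's voom with quality weights called no gene and put 740 past the nominal limit, while DESeq2 called 1, RAB18L (0.00643% of 15555), and put 793 there (5.1%). The groups did not overlap in 87 genes (0.739%), with L-histidine birds above β-alanine birds in 46 (0.391%) and below them in 41 (0.348%). The 5.61% is near the share that a limit of 0.05 lets through by itself where no gene differs. Some genes also separate 5 birds from 5 where nothing differs. Neither count is therefore evidence of a difference between the diets.

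The absence of calls does not show that the diets gave the same transcriptome. The 95% interval of the difference lay within 2-fold in either direction for 9032 genes (76.7%) and within 1.5-fold for 4569 genes (38.8%), and the remaining genes could differ by more than that. The median difference over all genes was 0.01, with 6045 genes above 0 and 5724 below. Without scaling of the libraries the split of nominal genes moved to 590 higher and 132 lower, and the median of all genes moved to 0.10. Without L-histidine replicate 3 the number of nominal genes was 1131, against 660 with all birds.

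**Figure D1:**
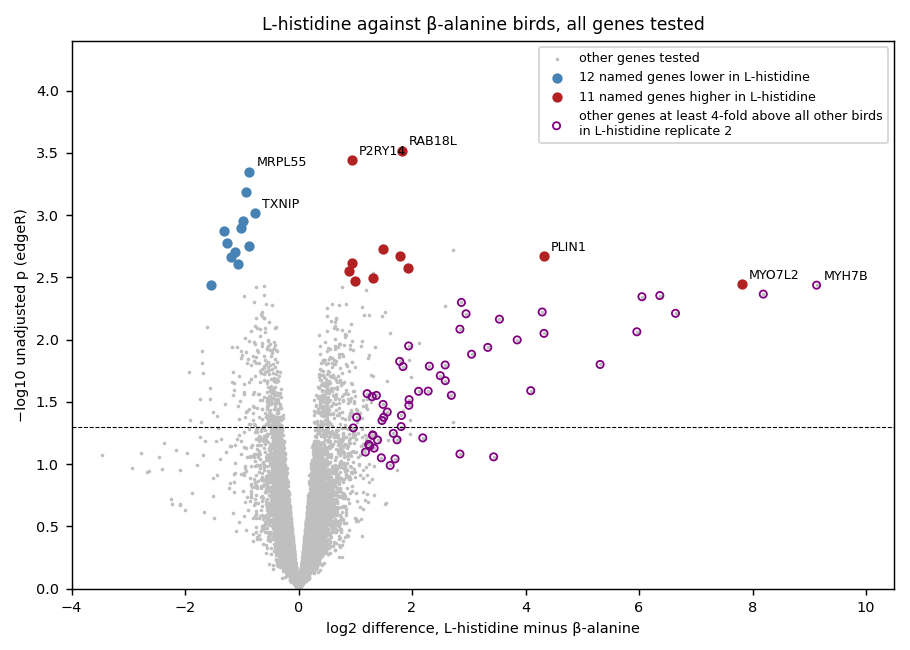
Each point is 1 of the 11769 genes tested. The horizontal axis is the log2 difference of L-histidine minus β-alanine birds, the vertical axis is the negative log10 of the unadjusted p, and the dashed line marks the nominal limit of 0.05. Red points are 11 named genes on the higher side and blue points 12 on the lower side, among those with the smallest p, and purple circles on the right are genes high in L-histidine replicate 2 alone.

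Before the genes are described, 2 of the birds have to be set apart. L-histidine replicate 2 carried transcripts of slow and oxidative muscle that the other 9 birds had at low levels, and 56 genes were at least 4-fold above every other bird in it. MYH7B, a slow-type myosin heavy chain, measured 0.3298, 1487, 0.359, 2.77 and 0.3897 normalized FPKM in L-histidine birds, against 0.0846, 0.443, 0.401, 0.611 and 1.11 in β-alanine birds. TNNT1, the slow skeletal troponin T, measured 0.769, 1651, 0.463, 2.301 and 0.606 normalized FPKM in L-histidine birds, against 0.841, 1.16, 1.56, 1.16 and 0.895 in β-alanine birds. The second L-histidine bird was thus the only bird of the 10 above 3 normalized FPKM in either gene, and the unsupplemented birds reached at most 19.4 for MYH7B and 24.3 for TNNT1.

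The same bird stood above the rest for many partners of the slow fibre. They included PLN, phospholamban, which restrains the calcium pump of slow and cardiac muscle, at 319.5 against at most 1.57 normalized FPKM in the others, and ATP2A2, that pump itself, at 51.2 against at most 1.41. MB, the oxygen store myoglobin, was at 390.4 against at most 15.9, and CSRP3, a Z-disc protein, was at 375 against at most 3.06. MYO7L2, a gene with a myosin name and no further description in the table, was at 356 against at most 0.810 in the other birds. Of the 56 genes, 40 passed the nominal limit in the comparison of all birds and 4 did so without that bird. TNNI1, MYL3 and MYL10, further slow isoforms, were high in that bird but had too few counts elsewhere to be tested, at 1355, 1837 and 1282 normalized FPKM. In whole muscle, a larger number of slow fibres and more slow-type RNA per fibre cannot be told apart, and whether the piece taken held another muscle was not tested.

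β-Alanine replicate 2 carried transcripts of plasma proteins that are made mainly in liver. In it 28 genes were at least 4-fold above every other bird. ALB, serum albumin, measured 1.101, 0.113, 7.63, 4.27 and 0.129 normalized FPKM in L-histidine birds, against 0.249, 54.1, 0.6398, 0.0431 and 1.03 in β-alanine birds. APOA2, an apolipoprotein of high-density lipoprotein, measured 6.101, 0, 52.6, 14.4 and 0.627 normalized FPKM in L-histidine birds, against 0.311, 335, 3.62, 0 and 7.53 in β-alanine birds. L-histidine replicate 3 came second in both genes. The fibrinogen chains FGA, FGB and FGG, the acid glycoprotein ORM1, hemopexin (HPX) and transferrin (TF) were high in the same β-alanine bird, with ORM1 at 513 against at most 36.6 elsewhere and TF at 71.4 against at most 6.28. Whether these transcripts came from the muscle or from other tissue carried into the sample was not tested.

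**Figure D2:**
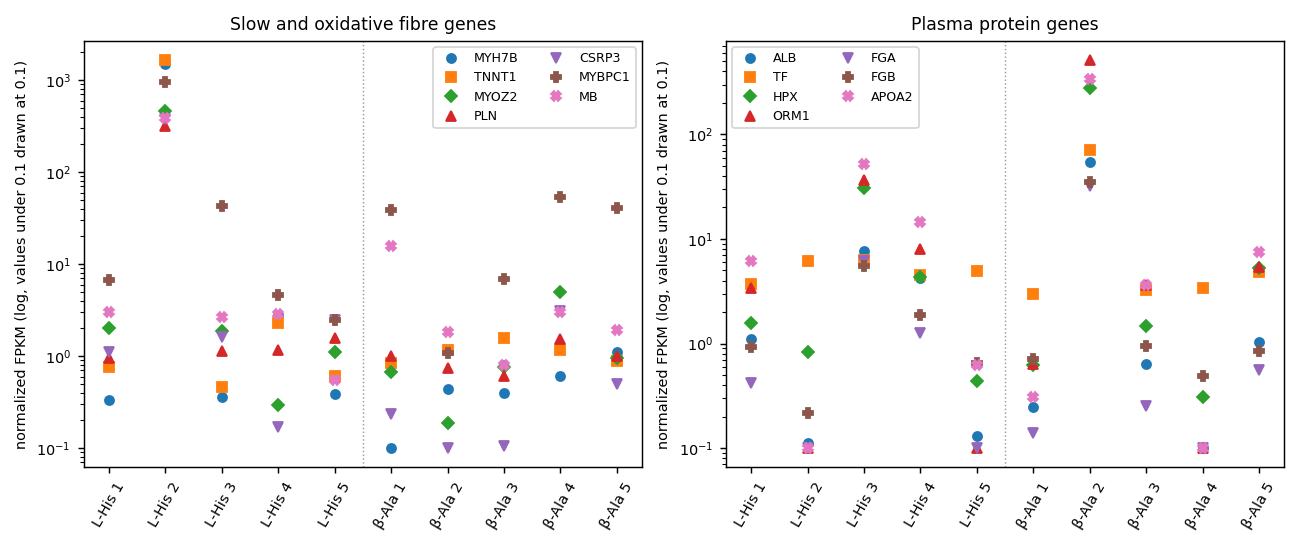
Normalized FPKM on a log axis for 7 slow and oxidative fibre genes (left) and 7 plasma protein genes (right), with 1 column per bird, L-histidine birds left of the dotted line and β-alanine birds right of it. The left panel peaks in L-histidine replicate 2, where MYH7B reached 1487 against at most 2.77 elsewhere, and the right panel peaks in β-alanine replicate 2, where ALB reached 54.1 against at most 7.63.

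These birds also lay at the ends of the first principal component, which held 27.7% of the variance, at -70.4 for L-histidine replicate 2 and at 45.0 for β-alanine replicate 2. Leaving out both gave 220 genes higher and 226 lower past the nominal limit, of which 120 and 117 were also among the nominal genes with all birds, and again no call. Many of the differences below are also given without both birds.

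Gene length moved with the comparison as well. In the 2944 genes with the shortest exons in all the median difference was -0.11 and 67.2% of genes lay below 0, while in the 2942 genes with the longest the median was 0.11 and 32.1% lay below 0. The median deviation of the shortest genes from their mean over the 10 birds was below 0 in L-histidine replicates 1, 2, 4 and 5 and 0.16 in replicate 3, against 0.02, 0.18, 0.11, -0.03 and 0.06 in the 5 β-alanine birds. The part of length in the results was not tested beyond a fit with the trend removed. Values from that fit are given for the groups of short genes and for some other lists.

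Among the genes with the smallest p on the higher side, RAB18L, named for its likeness to RAB18, a small GTPase of lipid droplets and the endoplasmic reticulum in mammals, measured 2.19, 2.86, 2.27, 8.19 and 2.87 normalized FPKM in L-histidine birds, against 1.12, 1.09, 1.01, 0.731 and 1.24 in β-alanine birds. All 5 L-histidine birds lay above all β-alanine birds, and L-histidine replicate 4 was far above the other 4. The difference was 1.82 (SE 0.37), with a 95% interval of 1.02 to 2.62 and a Benjamini-Hochberg adjusted p of 0.8497 in edgeR. It was the gene that DESeq2 called, at a DESeq2 adjusted p of 0.0200, and the unsupplemented birds covered 0.616 to 11.8 normalized FPKM. The gene lies on chromosome 27 at 5892918 to 5900410 of the GRCg6a build.

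P2RY14, a receptor for UDP-glucose, measured 2.58, 2.07, 2.43, 3.497 and 2.95 normalized FPKM in L-histidine birds, against 1.35, 1.25, 1.23, 1.65 and 1.57 in β-alanine birds. Here the groups did not overlap and no bird stood out, and the difference of 0.94 (SE 0.19) ranged from 0.83 to 1.03 when birds were left out in turn. REM1, a GTPase that inhibits voltage-gated calcium channels, measured 2.897, 3.57, 2.88, 2.15 and 3.33 normalized FPKM in L-histidine birds, against 1.61, 1.496, 1.77, 1.04 and 2.05 in β-alanine birds. Every L-histidine bird was above the highest β-alanine bird, by 0.89 on the log2 scale over the group. STK39, a kinase that activates sodium-coupled chloride cotransporters, measured 0.395, 0.568, 0.6503, 0.474 and 0.531 normalized FPKM in L-histidine birds, against 0.239, 0.0813, 0.2003, 0.3605 and 0.163 in β-alanine birds, again without overlap. Its levels were low in both groups, with 5 to 43 counts per bird, and the difference was 1.32 (SE 0.36).

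ACSBG1, an acyl-CoA synthetase of the bubblegum family that activates long-chain fatty acids, measured 0.549, 1.55, 0.425, 0.416 and 0.698 normalized FPKM in L-histidine birds, against 0.145, 0.0328, 0.217, 0.329 and 0.225 in β-alanine birds. The groups did not overlap, L-histidine replicate 2 was the highest bird, and the difference was 1.93 (SE 0.52) with all birds and 1.19 without both birds set apart above. SPC25, a kinetochore subunit used in cell division, measured 1.18 to 3.25 normalized FPKM in L-histidine birds, against 0.434 to 0.982 in β-alanine birds, a difference of 1.496 (SE 0.38).

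The remaining genes of the higher set were TCF24, CTBS, SELENOU, PLIN1 and MYO7L2. TCF24, a basic helix-loop-helix factor, differed by 1.79 and its ranges overlapped, with 0.887 to 3.68 normalized FPKM in L-histidine birds, against 0.182 to 0.914 in β-alanine birds. CTBS, a lysosomal chitobiase that trims glycoprotein sugars, differed by 0.95, and SELENOU, a selenoprotein, by 0.99. MYO7L2 belongs to the slow set of 1 bird, and its difference of 7.81 was 0.34 without both birds. Of these 11 genes, RAB18L, P2RY14, SPC25, ACSBG1, REM1 and STK39 had groups that did not overlap, against 0.391% of all genes. The 11 were picked for a small p in this same comparison, so that such a count is not independent evidence. None of them passed the adjusted threshold in edgeR.

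On the lower side, TXNIP, the thioredoxin-interacting protein that restrains glucose uptake and is induced by glucose, was the most abundant of the 12. It measured 284, 393, 346, 459 and 398 normalized FPKM in L-histidine birds, against 677, 501, 581, 618 and 821 in β-alanine birds. The highest L-histidine bird lay below the lowest β-alanine bird, and the difference was -0.77 (SE 0.18) with a 95% interval of -1.16 to -0.38. Leaving out birds in turn gave -0.85 to -0.66, and the unsupplemented birds covered 309.7 to 1056 normalized FPKM, which overlapped both groups. CDH8, a classical cadherin, measured 0.288, 0.337, 0.273, 0.275 and 0.2499 normalized FPKM in L-histidine birds, against 0.615, 0.364, 0.507, 0.768 and 0.646 in β-alanine birds. It was the other gene of the lower set without overlap, against 0.348% of all genes, in a set likewise picked for a small p. CDH8 had 25 to 72 counts per bird and a difference of -1.02 (SE 0.25).

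MRPL55, a protein of the large mitochondrial ribosome subunit, had the smallest p of the lower side and measured 27.3, 29.04, 44.6, 31.3 and 31.6 normalized FPKM in L-histidine birds, against 41.98, 69.4, 52.01, 66.5 and 68.4 in β-alanine birds. L-histidine replicate 3 was the only L-histidine bird within the β-alanine range, and the difference was -0.86 (SE 0.18), or -0.65 with the length trend removed. ATOH8, a basic helix-loop-helix factor, measured 46.4, 72.1, 72.7, 109 and 46.7 normalized FPKM in L-histidine birds, against 166, 72.7, 272, 161 and 195 in β-alanine birds. β-Alanine replicate 2 lay with the L-histidine birds, and the difference was -1.32 (SE 0.32) with all birds and -1.53 without both birds. OTOR (-0.92), CCDC25 (-0.99), SGMS1, a sphingomyelin synthase (-1.12), and HSD11B1a, of the family that reactivates glucocorticoids in mammals (-1.54), were also in this set, each with overlapping groups.

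The rest of the lower set held SESN2, GATSL2, NOCT and BTG2. SESN2, a leucine-binding inhibitor of mTORC1 that is induced by amino acid shortage, measured 3.01, 3.08, 1.55, 3.35 and 2.57 normalized FPKM in L-histidine birds, against 5.56, 11.7, 6.25, 2.94 and 6.21 in β-alanine birds. All L-histidine birds were below 4 of the 5 β-alanine birds, and the difference was -1.27 (SE 0.32). GATSL2, known in mammals as CASTOR2 and related to the arginine sensor upstream of mTORC1, measured 11.5 to 20.1 normalized FPKM in L-histidine birds, against 19.5 to 40.4 in β-alanine birds, with a difference of -0.88 (SE 0.22). NOCT, nocturnin, an enzyme expressed with a daily rhythm, measured 18.7, 11.9, 14.5, 31.5 and 36.4 normalized FPKM in L-histidine birds, against 66.3, 47.97, 56.95, 57.6 and 30.4 in β-alanine birds. L-histidine replicates 4 and 5 reached into the β-alanine range, and the difference was -1.20 (SE 0.31). BTG2, an antiproliferative immediate early gene, measured 155, 178, 189, 249 and 260.3 normalized FPKM in L-histidine birds, against 455, 467, 707, 243 and 278 in β-alanine birds, a difference of -1.06 (SE 0.28) with overlap at β-alanine replicate 4.

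**Figure D3:**
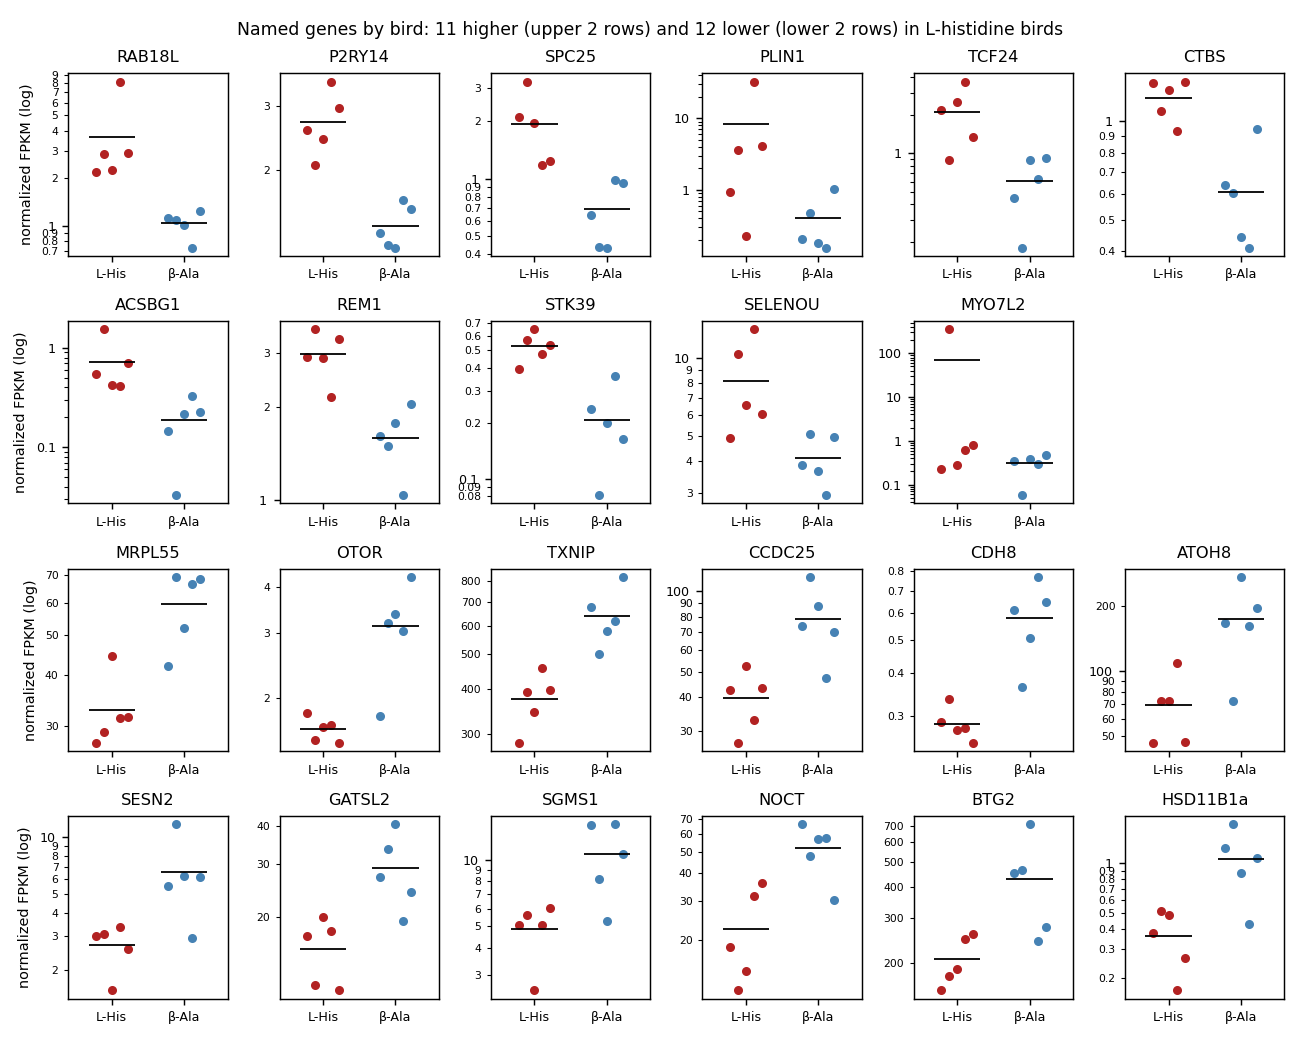
Normalized FPKM per bird on log axes for named genes among those with the smallest p, 11 on the higher side (upper 2 rows) and 12 on the lower side (lower 2 rows). Red points are the 5 L-histidine birds, blue points the 5 β-alanine birds, and lines are group means, so that the mean of MYO7L2 is set by 1 bird at 356 and TXNIP lies at 284 to 459 in red, against 501 to 821 in blue.

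Of 16 genes of carnosine synthesis and breakdown 12 were tested and 0 passed the nominal limit, against 5.61% of all genes. With 12 genes, 0 passing does not set the list apart from all genes. The 95% interval lay within 2-fold in either direction for 8 of the 12. Their median difference was -0.07, against 0.01 over all genes. CARNS1, carnosine synthase, measured 57.7, 54.04, 114, 116 and 75.6 normalized FPKM in L-histidine birds, against 111, 82.2, 91.03, 70.1 and 79.1 in β-alanine birds. The groups overlapped over nearly their whole range, and the difference of -0.05 (SE 0.24) had a 95% interval of -0.57 to 0.46, so that a difference above about 1.5-fold in either direction lay outside it. The mean levels were 83.5 ± 29.98 normalized FPKM in L-histidine birds and 86.6 ± 15.3 in β-alanine birds (SD, n = 5 each). The gene lies on chromosome 5 at 205432 to 212376 of the GRCg6a build.

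GADL1, which can form β-alanine by decarboxylation of aspartate or cysteine sulfinate in mammals, measured 18.01, 37.7, 73.9, 41.6 and 47.7 normalized FPKM in L-histidine birds, against 61.7, 41.03, 19.4, 72.5 and 30.5 in β-alanine birds. Both groups spread over a wide range, and the difference of -0.04 had an interval of -0.87 to 0.79. CARNMT1, the methyltransferase that turns carnosine into anserine, the main methylated dipeptide of chicken muscle, measured 13.1, 10.7, 12.1, 11.1 and 12.7 normalized FPKM in L-histidine birds, against 11.4, 13.02, 8.49, 13.8 and 9.199 in β-alanine birds, a difference of 0.10 with an interval of -0.24 to 0.43. CNDP2, the cytosolic dipeptidase, measured 11.8 to 14.04 normalized FPKM in L-histidine birds, against 12.95 to 16.6 in β-alanine birds, a difference of -0.09 with an interval of -0.35 to 0.18. These intervals lay within 1.5-fold for CARNMT1 and CNDP2 and reached close to 2-fold for GADL1.

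The other enzymes of this list, including those that make or consume β-alanine by other routes, were equally mixed. CSAD, the cysteine sulfinate decarboxylase, differed by 0.02, CDO1 and ADO, thiol dioxygenases, by -0.36 and -0.09, and ABAT and AGXT2, transaminases that use β-alanine, by -0.44 and -0.18. ALDH6A1, the next step after transamination, differed by 0.0015, and the pyrimidine-breakdown enzymes DPYD and UPB1 by 0.44 and -0.32. The widest gap, that of DPYD, had an interval of -0.29 to 1.18. CNDP1, GAD1, GAD2 and DPYS had too few counts to be tested, and CNDP1 did not exceed 0.163 normalized FPKM in any of the 10 birds.

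Histidine-using enzymes were mostly below the filter. Of 8 in the table, 3 were tested and 0 passed the nominal limit, against 5.61% of all genes, with a median of -0.10. HAL, histidase, which opens histidine breakdown, and HDC, which forms histamine, were not tested and stayed at or below 0.285 and 0.584 normalized FPKM. HARS, the histidyl-tRNA synthetase, measured 17.04, 19.5, 20.2, 22.1 and 17.8 normalized FPKM in L-histidine birds, against 22.01, 16.9, 22.2, 25.6 and 16.9 in β-alanine birds, a difference of -0.10 with an interval of -0.42 to 0.22. HNMT, which methylates histamine, differed by 0.31.

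Among 22 tested amino acid and dipeptide carriers, 1 was higher and 1 lower past the nominal limit. Among all genes 3.04% were higher and 2.57% lower past it, and the list median was 0.07. SLC7A5, the light chain of the carrier for large neutral amino acids including histidine, measured 19.9, 13.997, 28.5, 25.8 and 20.8 normalized FPKM in L-histidine birds, against 25.1, 35.6, 20.6, 31.04 and 39.3 in β-alanine birds. The groups overlapped, and the difference of -0.48 (SE 0.22) was -0.29 without both birds. The higher gene, SLC1A2, a glutamate carrier, belonged to the set of L-histidine replicate 2. SLC6A6, the taurine carrier that also moves β-alanine, measured 2.29, 14.5, 0.8899, 1.36 and 2.04 normalized FPKM in L-histidine birds, against 1.81, 1.58, 1.46, 1.49 and 2.47 in β-alanine birds. Its difference of 1.26 came with L-histidine replicate 2 and was -0.13 without both birds.

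**Figure D4:**
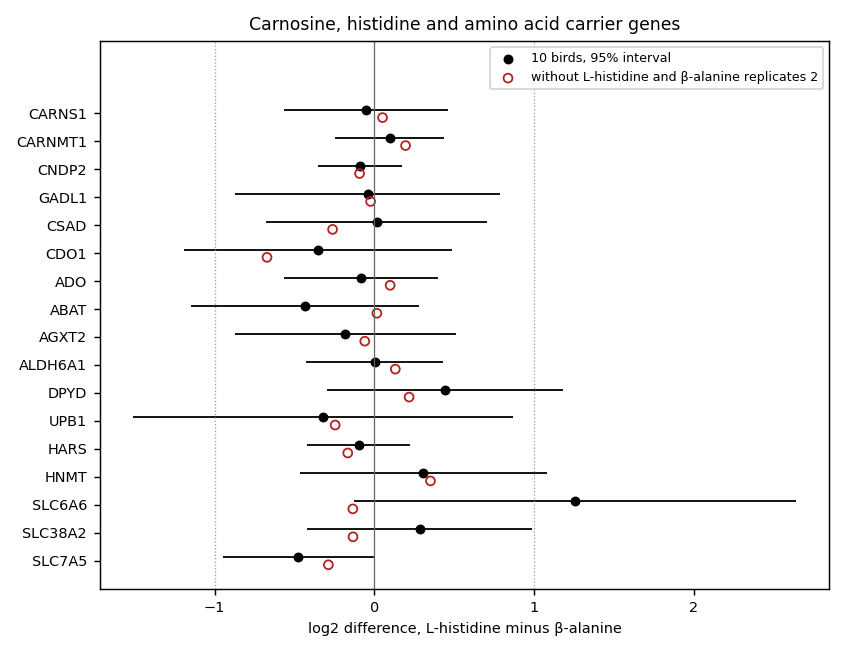
Log2 differences of L-histidine minus β-alanine birds for genes of carnosine, β-alanine and histidine metabolism and 3 amino acid carriers, with 95% intervals from edgeR (black) and the values without replicate 2 of each diet (red circles). Dotted lines mark 2-fold, CARNS1 lies at -0.05, and SLC6A6 lies at 1.26 with all birds and at -0.13 without both.

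Genes that respond to amino acid shortage are targets of the factor ATF4 and include the enzymes of serine synthesis. Of 21 tested members, 0 were higher and 5 lower past the nominal limit, against 2.57% lower among all genes, and the median was -0.14. Besides SESN2, these were DDIT4, an inhibitor of mTORC1, at -0.47 (SE 0.21), PSAT1 and PSPH, enzymes of serine synthesis, at -0.52 (SE 0.23) and -0.48 (SE 0.20), and EIF4EBP1, a repressor of cap-dependent translation, at -0.66 (SE 0.20). EIF4EBP1 measured 408, 335, 609, 411 and 438 normalized FPKM in L-histidine birds, against 592, 920.0, 795, 526 and 647 in β-alanine birds, with L-histidine replicate 3 inside the β-alanine range. Without both birds, SESN2 (-0.996) and EIF4EBP1 (-0.45) were still lower past the nominal limit, while DDIT4, PSAT1 and PSPH were at -0.32, -0.33 and -0.27 short of it. PHGDH and CBS were then higher, and PHGDH is 1 of the genes that stood out in β-alanine replicate 2 with all birds.

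FoxO factors and their targets, genes of fasting and growth arrest, had a median of -0.22, with 16 of 23 members below 0 and 3 lower past the nominal limit, against 2.57% lower among all genes. These were TXNIP, EIF4EBP1 and GADD45B, a stress gene, which measured 138, 87.4, 68.99, 255 and 187 normalized FPKM in L-histidine birds, against 239.8, 540.4, 347, 135 and 159 in β-alanine birds. GADD45B differed by -0.95 with all birds and -0.44 without both, when it no longer passed. FOXO1 itself differed by -0.22 with an interval of -1.04 to 0.60. The summed level of the list was 1566 to 2445 normalized FPKM in L-histidine birds, against 2392 to 3645 in β-alanine birds. Such a sum is weighted to abundant members, among them TXNIP and EIF4EBP1, and does not describe the list member by member.

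TRIM63, the muscle-specific ubiquitin ligase MuRF1 that marks myofibril proteins for breakdown in atrophy, measured 251, 273, 203, 292 and 419 normalized FPKM in L-histidine birds, against 755, 450.3, 466, 433 and 384 in β-alanine birds. L-histidine replicate 5 lay inside the β-alanine range, and the difference was -0.79 (SE 0.23) with all birds and -0.81 without both. The unsupplemented birds covered 69.2 to 285 normalized FPKM, which overlapped the L-histidine birds and lay below all β-alanine birds. TRIM63 was on a list of muscle ubiquitin ligases and adaptors that also holds MUSTN1, a gene of another kind. Of its 27 tested genes TRIM63 was the only 1 lower past the nominal limit, against 2.57% lower among all genes. The list median was -0.01. MUSTN1, a nuclear protein of growing and regenerating muscle on the same list, was higher, at 94.6, 697, 228, 32.7 and 148 normalized FPKM in L-histidine birds, against 44.2, 11.2, 51.02, 76.1 and 92.8 in β-alanine birds. Its difference of 2.12 (SE 0.71) was 0.93 without both birds.

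Immediate early and stress genes, which respond quickly to handling and other stress, lay below 0 in 21 of 25 members, with a median of -0.29. JUN, HES1 and BTG2 were lower past the nominal limit, against 2.57% of all genes, with all birds and without both. JUN, a subunit of the AP-1 factor, measured 78.9, 104, 130.2, 82.4 and 94.2 normalized FPKM in L-histidine birds, against 167, 119, 268, 134 and 129 in β-alanine birds. Only L-histidine replicate 3 was above the lowest β-alanine birds, and the difference was -0.74 (SE 0.23). HES1, a Notch target, differed by -0.90 (SE 0.39).

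The circadian clock list is of interest beside NOCT. Of 21 tested clock and output genes, NOCT was the only 1 past the nominal limit, against 5.61% of all genes, and the median was 0.12. Without both birds RORA, a nuclear receptor of the clock, was also past it, higher at 0.43. CRY1, a core repressor of the clock, measured 82.7, 57.3, 52.4, 82.8 and 89.7 normalized FPKM in L-histidine birds, against 92.3, 53.8, 75.4, 64.1 and 61.6 in β-alanine birds, a difference of 0.07 with an interval of -0.35 to 0.49.

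Fat cell genes were higher in some L-histidine birds. Of 17 tested markers of adipocytes and lipogenesis, 4 were higher and 0 lower past the nominal limit, against 3.04% higher among all genes, and the median was 0.32. PLIN1, which coats the lipid droplet of fat cells, measured 0.941, 3.58, 0.224, 32.6 and 4.16 normalized FPKM in L-histidine birds, against 0.203, 0.473, 0.182, 0.156 and 1.03 in β-alanine birds. L-histidine replicate 4 was far above every other bird, L-histidine replicates 1 and 3 lay within the β-alanine range, and the difference of 4.32 (SE 1.12) was 2.43 without L-histidine replicate 4. FABP4, the fatty acid binding protein of adipocytes, measured 14.6, 17.8, 7.33, 131 and 56.8 normalized FPKM in L-histidine birds, against 4.08, 2.93, 7.73, 3.74 and 19.3 in β-alanine birds, with the same bird highest and a difference of 2.58 (SE 0.77). THRSP, a regulator of lipogenesis, and RBP7, a retinol binding protein of fat, differed by 2.73 (SE 1.23) and 2.65 (SE 1.07).

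The same 4 genes were higher past the nominal limit without both birds set apart above. The summed level of the list was 149 to 469 normalized FPKM in L-histidine birds, against 186 to 249 in β-alanine birds, and the unsupplemented birds reached 48.6 normalized FPKM for PLIN1 and 253 for FABP4, above every supplemented bird. In whole muscle, more fat cells in the piece sampled and more of these RNAs per cell cannot be told apart.

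Of 33 genes of fatty acid uptake and oxidation, 4 were higher and 1 lower past the nominal limit, against 3.04% higher and 2.57% lower among all genes. The higher ones were FABP4, ACSBG1, ACSL1, an acyl-CoA synthetase, at 0.50 (SE 0.22), and PPARA, the nuclear receptor that controls fatty acid oxidation, at 0.84 (SE 0.27). PPARA measured 1.74, 3.56, 1.15, 2.08 and 1.96 normalized FPKM in L-histidine birds, against 1.31, 1.05, 0.962, 1.64 and 0.902 in β-alanine birds, with L-histidine replicate 2 highest, and its difference without both birds was 0.53. UCP3, the mitochondrial carrier that rises in fasting, was lower and measured 255, 314, 300.0, 742 and 283 normalized FPKM in L-histidine birds, against 936, 945, 392, 689 and 506 in β-alanine birds. L-histidine replicates 1, 2, 3 and 5 lay below every β-alanine bird and replicate 4 did not, and the difference was -0.87 (SE 0.33), or -0.68 without both birds. Without both, ACSL1 (0.34), PPARA and UCP3 no longer passed, and ACADL, an acyl-CoA dehydrogenase, did at 0.32, beside FABP4 and ACSBG1.

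In glucose use, PFKFB3, which raises the glycolytic activator fructose 2,6-bisphosphate, had the widest gap of the genes past the nominal limit. It measured 5.35, 9.97, 2.09, 9.75 and 6.58 normalized FPKM in L-histidine birds, against 29.9, 38.5, 2.86, 10.3 and 28.2 in β-alanine birds. β-Alanine replicates 1, 2 and 5 were above all other birds and the other 2 lay among or near the L-histidine birds, with a difference of -1.70 (SE 0.58). PFKFB4, a paralogue, was at -0.54 (SE 0.22) with β-alanine replicate 2 highest, and LDHB, the heart-type lactate dehydrogenase, was at 1.502 (SE 0.66), with 211 normalized FPKM in L-histidine replicate 2 against at most 25.0 elsewhere. Of 19 glycolytic genes these were the 3 past the nominal limit, against 5.61% of all genes. Without both birds PFKFB3 was at -1.58 and still passed, while PFKFB4 (-0.26) and LDHB (0.04) did not. PGAM1, a glycolytic mutase, measured 3160.5 to 7938 normalized FPKM in L-histidine birds, against 5022 to 7455 in β-alanine birds, a difference of -0.23. None of 26 genes of pyruvate dehydrogenase control, glucose uptake and glycogen passed that limit, against 5.61% of all genes, with a median of -0.10.

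Insulin and IGF signalling had 2 of 32 members higher and 0 lower past the nominal limit, against 3.04% higher among all genes, PIK3R6 at 0.51 (SE 0.21) and IGFBP2 at 0.76 (SE 0.34). PIK3R6 is a regulatory subunit of phosphoinositide 3-kinase gamma, and IGFBP2 is a binding protein of insulin-like growth factors. Without both birds PIK3R6 passed at 0.60 and IGFBP2, at 0.50, did not, and with the length trend removed neither passed. Among the 11 subunits of AMP-activated protein kinase and related proteins, PRKAG2 alone passed, higher at 0.42 (SE 0.19), against 5.61% of all genes. It did not pass without both birds, at 0.39, or with the length trend removed, when PRKAB1, a beta subunit, was lower at -0.51. None of 28 antioxidant enzymes passed, against 5.61% of all genes, with a median of -0.07.

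The connective tissue of meat depends on collagen and its processing. The study cites a report that collagen matters little for the eating quality of chicken. It also cites a report of higher expression of collagen genes in less tender chicken. In the earlier feeding trial that supplied these birds, shear force was lower with L-histidine than in the other groups, as the study states. Texture was not compared here. Of 23 collagen chains, COL4A1 at 0.38 (SE 0.17) and COL4A6 at 0.91 (SE 0.39), chains of basement membrane collagen, were higher and 0 were lower past the nominal limit, against 3.04% higher among all genes, with a median of 0.24 and 0.07 without both birds. COL4A1 measured 67.5, 61.8, 64.7, 54.9 and 83.4 normalized FPKM in L-histidine birds, against 55.5, 41.95, 39.7, 62.3 and 55.8 in β-alanine birds. The groups overlapped, and without both birds neither chain passed the nominal limit and COL16A1 was lower at -0.85. With the length trend removed 0 collagen chains passed and the list median was 0.17.

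Of 24 genes of collagen processing, 4 were higher and 1 lower past the nominal limit, against 3.04% higher and 2.57% lower among all genes. SERPINH1, the collagen chaperone HSP47, measured 30.98, 38.7, 47.5, 27.6 and 41.8 normalized FPKM in L-histidine birds, against 21.7, 19.1, 26.5, 33.6 and 33.4 in β-alanine birds, a difference of 0.47 (SE 0.20) with overlapping groups. The hydroxylases of collagen lysines PLOD1 and PLOD2 differed by 0.43 (SE 0.17) and 0.46 (SE 0.19), ADAMTS2, which removes the propeptide of procollagen, by 0.63 (SE 0.22), and P3H3, of the prolyl 3-hydroxylase family, by -0.65 (SE 0.20). P3H3 measured 0.679, 0.675, 0.498, 0.593 and 0.575 normalized FPKM in L-histidine birds, against 0.875, 0.671, 1.02, 0.983 and 1.18 in β-alanine birds, with overlap only at β-alanine replicate 2. PLOD1, ADAMTS2 and P3H3 were again past the nominal limit without both birds, at 0.57, 0.60 and -0.79. SERPINH1 (0.36) and PLOD2 (0.29) then no longer passed, and LOX, the lysyl oxidase that starts collagen cross-linking, was lower at -0.60.

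Calpains are calcium-activated proteinases that soften meat after death. CAPN2, the large subunit of m-calpain, measured 2.56, 3.603, 1.26, 2.73 and 1.44 normalized FPKM in L-histidine birds, against 0.803, 0.9499, 0.929, 1.25 and 2.19 in β-alanine birds. It was the only 1 of 11 tested members past the nominal limit, against 5.61% of all genes. Its difference of 0.92 (SE 0.35) was 0.63 without both birds, short of the limit. CAPN1, the μ-calpain subunit, and CAPN3, the muscle-specific calpain, differed by -0.14 and 0.21. CAST, the calpain inhibitor calpastatin, was at 0.71 with L-histidine replicate 2 highest, and CAPNS2, a small subunit, was at -0.45.

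In the contractile apparatus, 3 of 9 tested myosin heavy chains were higher past the nominal limit, MYH7B, MYH1D and MYH1F, against 3.04% of all genes, and each was highest in L-histidine replicate 2. Without both birds none was higher past that limit, with MYH1D and MYH1F at 0.20 and 0.47, and MYH1C was lower past it at -1.93, against 0.34 with all birds. MYH1A, a fast myosin, measured 42.03 to 121 normalized FPKM in L-histidine birds, against 37.1 to 159.8 in β-alanine birds, a difference of -0.19. The fast myosin genes lie side by side and are nearly identical, so that the assignment of fragments among them is uncertain. Of 10 tested slow fibre genes 6 were higher past the nominal limit, against 3.04% higher among all genes, with a median of 3.29. Without both birds 0 passed and the median was 0.02. MYBPH, a myosin-binding protein of fast muscle, measured 495, 172, 323, 414 and 419 normalized FPKM in L-histidine birds, against 336, 729, 457, 379 and 279.9 in β-alanine birds, a difference of -0.26.

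The genes named in the text of the study were chosen on these birds, so that a count over them is not independent evidence. Of 19 such genes, 17 were tested, and MYO7B at 0.82 (SE 0.36), an unconventional myosin, SERPINH1 and ACSBG1 were past the nominal limit, all higher, against 3.04% higher among all genes. Without both birds ACSBG1 alone passed, with MYO7B at 0.78 and SERPINH1 at 0.36. PPM1K, the phosphatase that activates breakdown of branched-chain amino acids, was at -0.003, PDE10A, a cyclic nucleotide phosphodiesterase, at -0.38, IGF2BP3, an RNA-binding protein, at 0.05 and GRIP2, a scaffold protein, at 0.20. For PPM1K the interval was -0.50 to 0.49, with 5.58 to 12.01 normalized FPKM in L-histidine birds, against 6.398 to 11.2 in β-alanine birds. LOC107051274, a gene like a chain of type IV collagen, differed by 1.53 with L-histidine replicate 2 highest, at 85.8 normalized FPKM. Its sign turned when 1 bird was left out, so that its direction is not settled here. The study reports it as upregulated with β-alanine against the unsupplemented diet, which is another comparison.

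Large groups of short genes lay below 0 together. Of 29 proteasome subunits, 28 were below 0, 6 of them past the nominal limit, against 2.57% lower among all genes, with a median of -0.30. PSMA7, a subunit of the catalytic core, measured 99.2 to 139 normalized FPKM in L-histidine birds, against 123 to 195 in β-alanine birds, a difference of -0.47 (SE 0.16). With the length trend removed the list median was -0.21 and 3 passed, and without both birds it was -0.10 and 0 passed. β-Alanine replicate 2 was the highest bird of the 10 for PSMA7.

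Of 66 ribosomal proteins of the cytosol, 62 were below 0, with a median of -0.17, and 4 were lower past the nominal limit, against 2.57% of all genes. Of 47 nuclear-encoded respiratory chain subunits, 42 were below 0, with a median of -0.19, and again 4 passed. With the length trend removed these medians were 0.02 and -0.03, and 1 ribosomal and 0 respiratory genes passed. Without scaling of the libraries they were -0.10 and -0.12, against a median of 0.10 over all genes in that setting.

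The list of heat shock proteins, which also holds the transcription factor HSF2, had a median of 0.28. Of its 28 tested genes 3 were higher past the nominal limit, against 3.04% of all genes. These were HSPB7, HSPH1 and HSF2, each highest in L-histidine replicate 2. Without both birds the median was 0.10 and 0 passed.

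Markers of breast muscle fibres and of the other cells that the muscle holds were compared in the same way. Of 7 tested fibre markers all lay below 0, against 5724 of 11769 genes, and 0 passed the nominal limit, against 5.61% of all genes. With 7 markers, 0 passing does not set the list apart from all genes. The markers are short genes, with a median exonic length of 1395 bases. Among the 2944 genes with the shortest exons in all, 67.2% lay below 0. The median of the 7 markers was -0.21, or -0.26 without both birds. With the length trend removed it was -0.12, and all 7 still lay below 0. Whether the markers differed as a set was not tested. Of 11 endothelial markers TEK, the angiopoietin receptor, was the only 1 past the nominal limit, against 5.61% of all genes. It was higher at 0.51 (SE 0.16). TEK measured 5.14, 6.31, 4.81, 6.09 and 7.1 normalized FPKM in L-histidine birds, against 4.73, 3.496, 3.62, 3.99 and 4.89 in β-alanine birds. The groups overlapped only between L-histidine replicate 3 and β-alanine replicate 5. The summed level of the endothelial list was 102 to 134 normalized FPKM in L-histidine birds, against 74.5 to 123 in β-alanine birds. Of 10 smooth muscle and pericyte markers 3 were higher past the nominal limit, against 3.04% of all genes, ACTA2, smooth muscle actin, at 0.77 (SE 0.26), CNN1 at 2.69 (SE 1.08), again highest in L-histidine replicate 2, and LMOD1 at 0.67 (SE 0.27). Without both birds ACTA2 and LMOD1 passed, CNN1 (0.13) did not, and KCNJ8, a potassium channel of pericytes, was lower at -0.64. The list summed to 1932 to 3859.9 normalized FPKM in L-histidine birds, against 1111 to 2719 in β-alanine birds.

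None of 10 fibroblast markers passed the nominal limit, against 5.61% of all genes, and their median was 0.30, or 0.08 without both birds. They summed to 205 to 410.4 normalized FPKM in L-histidine birds, against 203 to 344 in β-alanine birds. L-histidine replicate 2 had the highest sum, and the other L-histidine birds reached at most 369. None of 14 immune markers passed, against 5.61% of all genes, and their median was 0.17, or -0.06 without both birds. They summed to 125 to 671 normalized FPKM in L-histidine birds, against 249 to 446 in β-alanine birds. The highest sum was again that of L-histidine replicate 2, and the other L-histidine birds reached at most 442. Of the red cell genes, 4 were tested and all lay below 0. HBA1, an alpha globin, measured 25.4, 53.6, 39.9, 38.2 and 30.3 normalized FPKM in L-histidine birds, against 56.7, 22.8, 65.7, 58.7 and 78.4 in β-alanine birds, a difference of -0.59 (SE 0.29). HBBA, a beta globin, was at -0.57 (SE 0.26) and the only 1 past the nominal limit, against 2.57% lower among all genes. β-Alanine replicate 2 had the lowest level of both globins. Without both birds HBA1 (-0.96), HBBA (-0.85) and HBM (-1.05), another alpha-type globin, were lower past that limit. These are short genes, and with the length trend removed the list median was -0.35 and 0 passed. The part of blood and vessel content in the other differences was not tested.

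**Figure D5:**
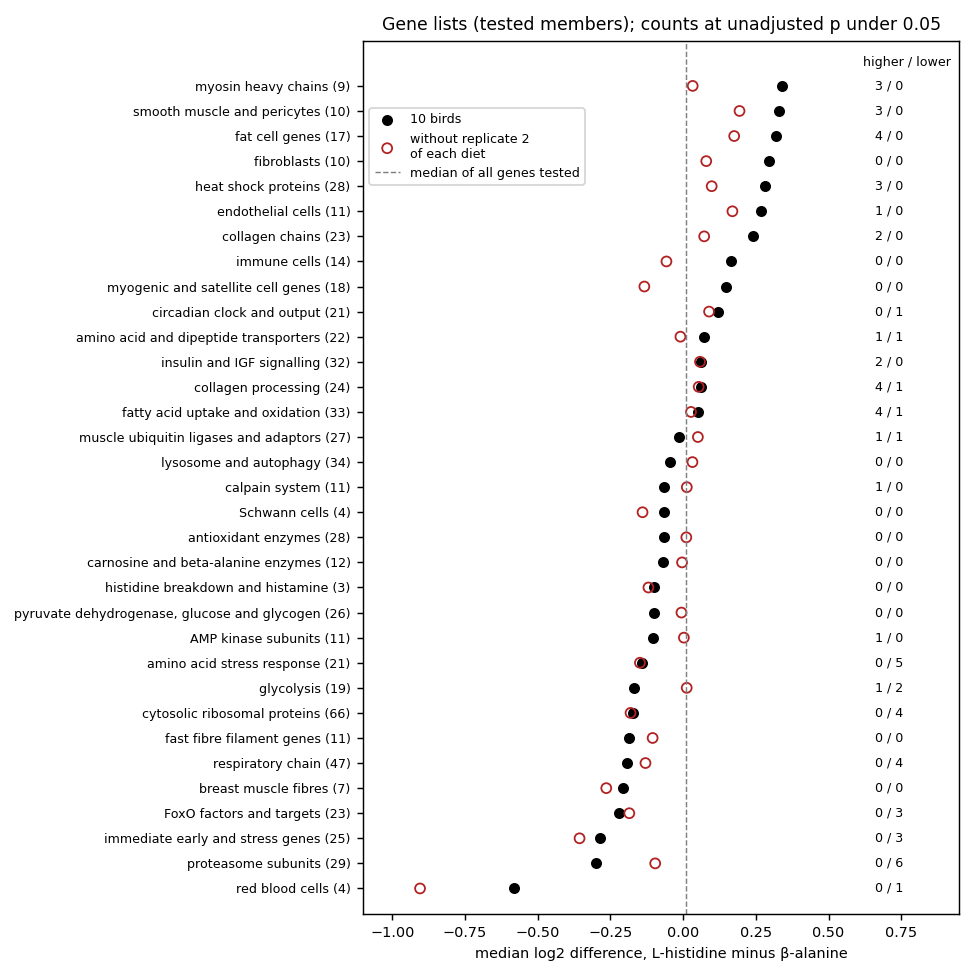
Median log2 difference of the tested members of 33 gene lists, with all 10 birds (black) and without replicate 2 of each diet (red circles). The number tested stands in brackets, and the dashed line is the median of all genes. The figures on the right count members higher and lower past the nominal limit, such as 4 and 0 among fat cell genes and 0 and 6 among proteasome subunits. The slow fibre list and the genes of the study's text are not drawn.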

How the data were processed

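Breast muscle RNA of 15 female Korat chickens was sequenced by the authors as poly(A) libraries, 1 per bird, of which the 10 supplemented birds were compared. The authors used cutadapt 1.9.1 for trimming, HISAT2 2.0.1 for alignment to GRCg6a and HTSeq 0.6.1 for counting. Strand and multimapping settings are not given in the sources used here. The deposited table holds the raw count per gene and bird and the FPKM that the authors derived from it, and no column of it went unused for want of a sample. The deposited FPKM served for 1 alternative filter.

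Counts of the 10 birds were fitted in R 4.3.3 with edgeR 4.0.16 (filterByExpr, relative log expression factors, quasi-likelihood F test, Benjamini-Hochberg adjustment), and a gene was called where the adjusted p was below 0.05 and the fold change 1.5 or more. Alternatives were TMM or no scaling, a mean FPKM of at least 0.2 or no filter, DESeq2 1.42.0, voom in limma 3.58.1, robust fitting, all birds in the fit, a replicate block and each bird left out, and, chosen after seeing the data, both birds at the ends of the first principal component left out and a length trend removed by lowess. Scripts were tested on simulated data. Cages were separate, so p-values measure the spread between birds of different cages.

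Named were the 12 genes per direction with the smallest p (a LOC number was passed over, and a few items are not reported here), all genes of the carnosine list and of the study's text, and 2 members per list with the smallest p. Other genes, including those of single birds, were named after their values were seen. The lists and comparisons were chosen with earlier results of these data known. Lists share members, such as FABP4, EIF4EBP1 and MYH7B, so that the counts of different lists are not independent. Chromosomes are those that most gene symbols of a sequence carry in GRCg7b.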

Additional observations from a re-analysis of the deposited data

Results flagged for a closer look

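For 11 named genes on the higher side, 12 on the lower side and 3 library measures, each group of 5 birds was searched for a bird far from the rest. In 52 such groups 6 values lay farther out than a Dixon test at the 95% level allows. That test flags about 1 in 20 groups of normally distributed values, and the levels used here were not on a log scale. Of the 52 groups, 46 were of genes picked for a small p in these same birds. The 6 flags therefore cannot be set against that rate. RAB18L was at 8.19 normalized FPKM in L-histidine replicate 4, with the next bird at 2.87. PLIN1 was at 32.6 in the same bird, with the next at 4.16. ACSBG1 was at 1.55 and MYO7L2 at 356 in L-histidine replicate 2, with the next birds at 0.698 and 0.810. MRPL55 was at 44.6 in L-histidine replicate 3, with the next at 31.6, and SGMS1 was low in that bird at 2.56, with the next at 5.05. L-histidine replicate 2 is the bird with slow muscle transcripts, L-histidine replicate 3 came second to β-alanine replicate 2 in the plasma protein genes ALB and APOA2, and L-histidine replicate 4 had the highest levels of the fat cell genes PLIN1 and FABP4 among the supplemented birds.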

How the results depend on the processing

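No gene was called with edgeR under any alternative, while DESeq2 called 1, RAB18L. The nominal limit, an unadjusted p under 0.05, was passed by 358 genes on the higher and 302 on the lower side with all birds. Without scaling these counts were 590 and 132, with all 15 birds in the fit 295 and 175, and without both birds set apart, an alternative chosen after seeing the data, 220 and 226. With the length trend removed, also chosen after seeing the data, they were 325 and 265, and without a filter on low counts 483 and 391. Leaving out 1 bird in turn gave 239 to 524 higher and 205 to 607 lower genes, the lowest totals being 465 without β-alanine replicate 2 and 502 without L-histidine replicate 2 and the highest 1131 without L-histidine replicate 3. The cause of these shifts was not tested.

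The correlation of same-numbered birds was -0.23 to 0.08, which cannot show whether cages were matched by replicate number. The main fit treated the birds as unpaired. With the replicate block, the nominal limit was passed by 230 genes on the higher and 244 on the lower side, and none was called.

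The values whose sign turned belonged in part to genes with differences near 0. Others had large differences with all birds, among them TNNT1 (8.19), SLC6A6 and LOC107051274. Without scaling the sign turned for CNDP2 (0.00874), GADL1 (0.0264) and PPM1K (0.12). With TMM scaling the sign turned for PPM1K (0.00167). Without a filter on low counts the sign turned for ALDH6A1 (-0.00386). In DESeq2 the sign turned for ALDH6A1 (-0.00382). In voom the sign turned for CSAD (-0.11), ADO (0.00451), TPM2 (-0.13), MYBPH (0.0208), IGF2BP3 (-0.0108) and PPM1K (0.0102). With the replicate block the sign turned for CSAD (-0.0192) and TPM2 (-0.11). Without both birds set apart the sign turned for CARNS1 (0.0515), CSAD (-0.26), ABAT (0.0159), ADO (0.10), TPM2 (-0.99), MYBPH (0.19), SLC6A6 (-0.13), IGF2BP3 (-0.10), GRIP2 (-0.0101), PPM1K (0.00467) and TNNT1 (-0.10). With the length trend removed the sign turned for ALDH6A1 (-0.0381) and IGF2BP3 (-0.00504). When 1 bird was left out in turn, the sign turned for ADO (-0.25 to 0.0524), AGXT2 (-0.34 to 0.10), ALDH6A1 (-0.13 to 0.0773), CARNS1 (-0.20 to 0.0699), CRY1 (-0.0144 to 0.19), CSAD (-0.30 to 0.21), FOXO1 (-0.44 to 0.0578), GADL1 (-0.31 to 0.20), IGF2BP3 (-0.12 to 0.22), LOC107051274 (-0.67 to 2.73), MYBPH (-0.39 to 0.00568), PPM1K (-0.17 to 0.12), SLC6A6 (-0.10 to 1.51), TNNT1 (-0.11 to 8.51), TPM2 (-0.79 to 2.72) and UPB1 (-0.83 to 0.26). All other tested genes that were picked by the naming rules kept their direction in these settings. Genes named after their values were seen are not covered here, and among them MYH1C and PHGDH turned without both birds set apart. Counting error bears most on genes with few counts, such as STK39, HSD11B1a and ACSBG1.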
